A study of Homo sapiens with 4 samples.

Results

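A group of 8 transcription regulators of the embryonic kidney was followed by gene symbol through the counts of a human embryonic kidney line with and without THUMPD1: SIX2, SIX4, EYA1, SALL1, PAX2, PAX8, WT1 and LHX1. They are 8 of the 18917 genes in the count table, and each of the 8 symbols was found there. The RNA came from HEK-293T cells (labelled HEK293), an immortalized line derived from human embryonic kidney, that were either WT or THUMPD1 KO. THUMPD1 is the adaptor protein needed for acetylation of cytidine in tRNA. There were 4 libraries, WT replicates 1 and 2 and KO replicates 1 and 2, and all came from cells grown in DMEM with 10% serum and 2 mM glutamine. The KO cells were made with CRISPR-Cas9 and grown out from sorted single cells, so that the genotype and the clone cannot be told apart. The labels do not say that replicates were separate cultures, and the p-values measure only the spread between these libraries, which may be technical.

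The kidney arises from intermediate mesoderm, in which the ureteric bud, an outgrowth of the nephric duct, and the mesenchyme around it signal to each other. PAX2, PAX8 and LHX1 act early in the duct and again in the first nephron epithelia. EYA1, SIX2, SIX4, SALL1 and WT1 act in the mesenchyme, as PAX2 does too. There EYA1 works as a co-activator of SIX2, SIX4 and their relatives, SIX2 keeps nephron progenitors from differentiating, and WT1 is needed for survival of the mesenchyme and later for podocytes.

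Promoters from RefSeq (GRCh38.p14) matched 5 of the 8 factors by symbol, with 9 promoters of 300 bases among them. Those of SIX2 and PAX8 are shown since these were the most and the least abundant of the 8 per kb of exon. Both are on the minus strand of chromosome 2, chr2:45009403-45009702 for SIX2 and chr2:113278872-113279171 for PAX8, and are written 5′ to 3′ with each CG pair in capitals.
SIX2: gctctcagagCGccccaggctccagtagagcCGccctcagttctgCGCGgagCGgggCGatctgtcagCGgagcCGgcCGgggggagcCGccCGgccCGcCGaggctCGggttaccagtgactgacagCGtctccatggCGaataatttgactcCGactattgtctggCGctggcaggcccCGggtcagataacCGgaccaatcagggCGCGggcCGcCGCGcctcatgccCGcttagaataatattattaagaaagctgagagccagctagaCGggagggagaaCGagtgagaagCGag
PAX8: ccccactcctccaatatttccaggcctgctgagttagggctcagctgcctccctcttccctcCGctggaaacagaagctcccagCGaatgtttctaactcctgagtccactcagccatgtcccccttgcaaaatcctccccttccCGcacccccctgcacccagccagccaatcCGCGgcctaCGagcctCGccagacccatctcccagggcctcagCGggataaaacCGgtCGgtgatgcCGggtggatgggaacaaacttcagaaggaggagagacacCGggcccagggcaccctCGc
The SIX2 promoter held 29 CG pairs, more than 75.8% of the 35116 promoters in the table, and that of PAX8 held 13, more than 48.3% of them. The median promoter held 14. On either strand, the SIX2 window contained GGGCGG, as did 45.0% of all promoters, and the PAX8 window did not. CCAAT was found in both windows and in 34.6% of all promoters, and TATAAA, found in 11.5% of them, was in neither. These matches describe the sequence only. The promoters of EYA1, LHX1 and SALL1 were not used here.

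Library totals lay between 7875722 and 11362363 counts, so that 3 counts, taken as the floor of detection, were worth between 0.259 and 0.391 CPM (counts brought to a common library size by edgeR's TMM scaling). THUMPD1 was counted 356 and 468 times in WT and 71 and 58 times in KO libraries, a log2 fold change of -2.93 (Benjamini-Hochberg adjusted p = 1.27e-12, edgeR's quasi-likelihood test), as the labels say. Replicates differed by more than sampling noise, with a chi-square for each degree of freedom of 3.69 for the WT pair and 6.07 for the KO pair, and of 26.9 for WT replicate 1 against KO replicate 1. Of 13128 genes that reached 1 CPM in 2 or more libraries, 2748 (20.9%) passed an adjusted p of 0.05, of which 1154 (8.79%) were higher and 1594 (12.1%) lower in KO cells. Scaled by library size alone, 2081 were higher and 1158 lower, and without KO replicate 1 the test called 1620 genes. The median log2 fold change of all genes tested was 0.01.

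The labelled origin was checked against markers of kidney and other cells. The mesenchymal marker VIM stood between 309 and 354 CPM, while UMOD, which defines the loop of Henle, had no count in any library. The collecting duct markers summed to 9.91 and 13.8 CPM in WT against 12.6 and 12.2 CPM in KO cells, nearly all of it from the proton pump subunit ATP6V1B1, while the water channel AQP2 had 1 count in all. The summed markers of the loop and distal tubule lay between 0.728 and 0.782 CPM, those of adrenal cortex between 0.455 and 1.38 CPM, those of endothelium between 0.282 and 1.04 CPM, and those of blood between 0 and 0.652 CPM. LRP2, the endocytic receptor megalin of the proximal tubule, had 39.1 and 46.2 CPM in WT against 35.9 and 32.8 CPM in KO cells. It made up most of the summed proximal tubule markers (44.3 and 51.8 CPM against 40.5 and 37.5 CPM), since CUBN and GGT1 reached at most 2.64 and 2.68 CPM in any library and the transporters SLC5A2 and SLC34A1 at most 9 and 1 counts. Summed epithelial markers stood at 81.1 and 89.4 CPM in WT against 67.1 and 70.1 CPM in KO cells, and summed podocyte markers at 115 and 117 CPM against 77.3 and 73.1 CPM. The 7 neuronal markers summed to 303 and 283 CPM in WT against 163 and 164 CPM in KO cells, with NEFM lower (log2 fold change -2.87) and NEFL higher (0.34, and 0.28 without KO replicate 2, which did not pass) in KO cells, and the neuronal genes STMN2 and ELAVL4 reached at most 5 and 3 counts. The lower neuronal sum came from NEFM, with 185 and 177 CPM in WT against 26.3 and 23.0 CPM in KO cells. Of the other neuronal markers tested, INA and MAP2 had log2 fold changes of 0.31 and 1.38 and TUBB3 of -0.35, and none of these was called. The part of these differences in the results below was not tested.

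Within the group, 6 of the 8 factors were readily counted in every library, PAX8 was near 0 in all of them, and LHX1 was low in WT and higher in KO cells. LHX1 was also the only factor whose difference passed the test. It was higher in KO cells, 1 call among the 7 factors tested, against 20.9% of all genes called in either direction and 8.79% called higher. The median log2 fold change of the 7 was 0.07. Levels of 3 of the 7 factors, SIX2, SIX4 and LHX1, did not overlap between the genotypes, against 60.4% of all genes tested. In bulk RNA, fewer expressing cells and less RNA per cell cannot be told apart. The plot of CPM by library shows the gap between the genotypes for LHX1 beside the smaller differences of the other factors.

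**Figure D1:**
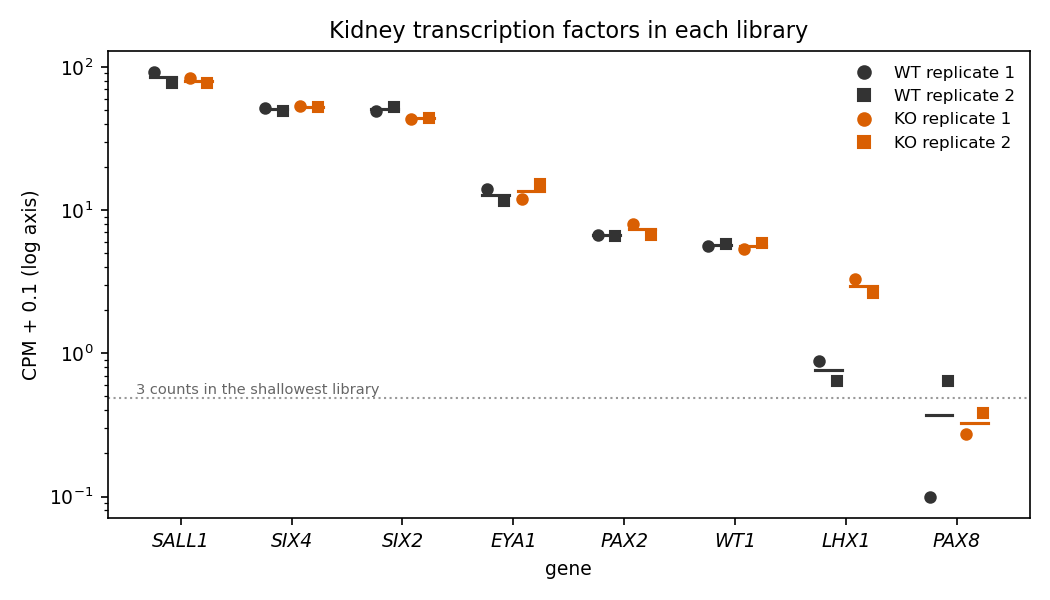
CPM plus 0.1 (log axis) of the 8 kidney transcription factors in each library, with WT in grey, KO in orange, circles for replicate 1, squares for replicate 2 and short lines for the mean of each genotype. The dotted line marks 3 counts in the shallowest library, and LHX1 rises from 0.782 and 0.546 CPM in WT to 3.20 and 2.54 CPM in KO cells.

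Levels of different genes were compared as CPM per kb of merged exon (GENCODE 44). SIX2 was highest, with a mean over the 4 libraries of 21.4 CPM per kb and a range of 19.6 to 23.8. SALL1 followed with 13.0 (12.1 to 14.6) and SIX4 with 7.61 (7.28 to 7.85). Then came EYA1 with 1.40 (1.22 to 1.61) and PAX2 with 1.05 (0.982 to 1.21) CPM per kb. The ranges of these 5 did not overlap, whereas that of WT1, at 0.686 CPM per kb (0.648 to 0.716), overlapped that of LHX1, at 0.359 (0.111 to 0.651). PAX8 was lowest, at 0.0339 CPM per kb (0 to 0.0741). The order of WT1 and PAX2 depends on the length used, since per kb of the longest transcript WT1 stood at 1.75 and PAX2 at 1.63, with overlapping ranges.

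SIX2, the progenitor factor, lies on chromosome 2 of GRCh38 from 45005182 to 45009452. It had 378 and 577 counts in WT replicates 1 and 2 and 500 and 470 counts in KO replicates 1 and 2, or 50.9 ± 2.27 CPM in WT against 43.7 ± 0.667 CPM in KO cells (mean ± SD of 2 libraries). Both KO libraries, at 43.2 and 44.1 CPM, were below both WT libraries, at 49.3 and 52.5 CPM. The log2 fold change of -0.22 (95% interval -0.44 to 0.00) was not past the threshold (Benjamini-Hochberg adjusted p = 0.141, edgeR's quasi-likelihood test), nor was it under any of 7 alternative fits, which gave -0.23 to -0.14. The unadjusted p of the same edgeR test was 0.0458, so the interval ends just under 0 before rounding. From summed counts the ratio of KO to WT was 0.852 (exact 95% interval 0.778 to 0.933, counting error only). Its nearest tested neighbour, the relative SIX3, lies 59.1 kb away and had a log2 fold change of -0.07. SIX3 is a factor of forebrain and eye.

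SIX4 (chromosome 14, 60709539 to 60724351), a homeobox relative of SIX2 that acts in the mesenchyme, was counted 393 and 542 times in WT and 615 and 557 times in KO libraries. Its levels were 50.3 ± 1.37 CPM in WT against 52.7 ± 0.581 CPM in KO cells (mean ± SD of 2 libraries). Here the KO libraries, at 53.1 and 52.3 CPM, were above the WT libraries, at 51.3 and 49.3 CPM, but the nearest libraries of the genotypes were closer to each other than the WT libraries were. Its log2 fold change was 0.07 (95% interval -0.14 to 0.28, with a Benjamini-Hochberg adjusted p of 0.677 by edgeR's quasi-likelihood test).

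EYA1 (chromosome 8, 71197433 to 71592025), the co-activator and phosphatase that SIX2, SIX4 and their relatives bind, was counted 107 and 125 times in WT and 138 and 160 times in KO libraries. Its levels of 14.0 and 11.4 CPM in WT against 11.9 and 15.0 CPM in KO cells overlapped. EYA1 had a log2 fold change of 0.10 (95% interval -0.32 to 0.52, with a Benjamini-Hochberg adjusted p of 0.78 by edgeR's quasi-likelihood test), and it fell to -0.08 without KO replicate 2. A processed pseudogene lies within EYA1 in GENCODE 44.

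SALL1, a zinc finger repressor of the progenitor mesenchyme that recruits the NuRD complex, had the highest counts of the 8, with 705 and 848 in WT and 961 and 815 in KO cells. Its levels were 84.6 ± 10.5 CPM in WT against 79.8 ± 4.58 CPM in KO cells (mean ± SD of 2 libraries). WT replicate 1, at 91.9 CPM, was highest, and the other libraries stood at 77.2, 83.0 and 76.5 CPM. The log2 fold change was -0.08 (95% interval -0.27 to 0.11, with a Benjamini-Hochberg adjusted p of 0.607 by edgeR's quasi-likelihood test), and 0.05 without WT replicate 1. The genes with the pattern most like SALL1, by Euclidean distance of log2 CPM over the 4 libraries, were NDUFV3 (distance 0.0776), IDI1 (0.115) and MMGT1 (0.116). Their log2 fold changes were -0.09, -0.01 and -0.03. Since they were picked for the pattern of SALL1 in the same libraries, these values are not independent of it.

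SALL1 is on chromosome 16 (51135982 to 51152334), whose other 572 genes tested had a median log2 fold change of -0.44. THUMPD1 is on the same chromosome. SALL1 stood 0.37 above that median, and 15.9% of the other genes of the chromosome were higher. The median of the genes around it was also nearer to 0 than that of the whole chromosome. Within 5 Mb on each side there were 33 other tested genes with a median of -0.14, of which 22 were below 0, 18 were below SALL1, 6 were called lower and 0 higher. Of the nearest tested neighbours, CYLD had a log2 fold change of -0.27, NKD1 of -0.45, TOX3 of 0.89 and CHD9 of -0.05, and none was called. The other factors tested lie on chromosomes with medians between -0.06 and 0.05. The plot of genes around SALL1 sets it beside these neighbours.

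PAX2, the paired-box factor of the nephric duct and early nephron, lies on chromosome 10 from 100735396 to 100829944. It was counted 51 and 71 times in WT and 92 and 70 times in KO libraries. KO replicate 1 was highest at 7.95 CPM, and the other libraries lay between 6.46 and 6.65 CPM, so the genotypes overlapped. PAX2 had a log2 fold change of 0.15 (95% interval -0.42 to 0.72, with a Benjamini-Hochberg adjusted p of 0.747 by edgeR's quasi-likelihood test), and 0.01 without KO replicate 1. Summed over replicates, KO cells had 1.11 times the WT level (exact 95% interval 0.875 to 1.42, counting error only).

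PAX8, its close relative with an overlapping role in the duct, was counted 0 and 6 times in WT and 2 and 3 times in KO libraries and was near the floor in all 4 libraries (chromosome 2, 113215997 to 113278921). No library passed 0.546 CPM. The 0 in WT replicate 1 allows up to 3.69 counts (upper end of an exact 95% interval, counting error only). In that library the floor of 3 counts was worth 0.391 CPM. As a gene near 0 in all libraries it is given as absent at this depth, although WT replicate 2, with 6 counts, was above the floor of 3. The filter left it out, and no fold change is given. PAX8-AS1, an antisense RNA that overlaps PAX8 in GENCODE 44, was not analysed here. Whether the counting used strand is not given in the sources used here, so reads of such partners cannot be told apart. The same holds for WT1, LHX1, EYA1 and SALL1, which also overlap long non-coding RNAs on the other strand.

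WT1, the zinc finger factor first found in Wilms tumour, lies on chromosome 11 from 32387775 to 32435564. It was counted 42 and 63 times in WT and 61 and 62 times in KO libraries. This gave 5.61 ± 0.18 CPM in WT against 5.55 ± 0.391 CPM in KO cells (mean ± SD of 2 libraries), and the libraries overlapped. The log2 fold change was -0.02 (95% interval -0.66 to 0.62, with a Benjamini-Hochberg adjusted p of 0.973 by edgeR's quasi-likelihood test), with a sign that turned when library size alone (0.07) or the upper quartile (0.01) set the scale. Of the 5 podocyte markers, genes of a cell in which WT1 also acts, PODXL was lower in KO cells with a log2 fold change of -0.68, SYNPO and PTPRO were not called, and NPHS1 reached at most 5 counts.

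LHX1, the LIM homeobox factor of the nephric duct and of the patterning of early nephrons, lies on chromosome 17 from 36936785 to 36944612. It had 6 counts in each WT library and 37 and 27 counts in KO replicates 1 and 2. In CPM this was 0.664 ± 0.167 in WT and 2.87 ± 0.467 in KO cells (mean ± SD of 2 libraries), with no overlap. The log2 fold change was 2.12 (95% interval 0.87 to 3.38, with a Benjamini-Hochberg adjusted p of 0.0138 by edgeR's quasi-likelihood test). Both WT libraries were under 1 CPM, so LHX1 passed the filter on low values only through the KO libraries, and a gene at its WT level had to be higher in KO cells to be tested. From the summed counts, 12 in WT and 64 in KO cells, the ratio of KO to WT was 4.47 (exact 95% interval 2.39 to 9.11, counting error only).

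The call of LHX1 rested on few counts. Each of the 6 alternative fits that could test it called it higher, with log2 fold changes of 1.80 to 2.21 and adjusted p between 0.00805 and 0.0459. With at least 10 counts required in every library it could not be tested. Without WT replicate 2 the log2 fold change was 1.86 and without KO replicate 1 it was 1.94, and neither passed (Benjamini-Hochberg adjusted p = 0.0733 and 0.137, edgeR's quasi-likelihood test). None of the other 767 genes tested on chromosome 17 had a larger log2 fold change, and the median of the chromosome was -0.06. A gene as low in WT as LHX1 was tested only if it was higher in KO cells. The rank therefore depends on the filter and does not mark LHX1 out.

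None of the 4 nearest tested genes beside LHX1 was called higher. AATF, a nucleolar protein, lies 4.31 kb from LHX1 and was lower in KO cells (log2 fold change -0.37, with a Benjamini-Hochberg adjusted p of 0.000551 by edgeR's quasi-likelihood test). On the other side MRM1, a mitochondrial rRNA methyltransferase, was lower as well, with a log2 fold change of -0.87 that did not pass without KO replicate 1 (-0.45). DHRS11 and ACACA had log2 fold changes of -0.11 and -0.17 and were not called. The genes with the most similar pattern over the 4 libraries were POU5F1, a pluripotency factor (distance 0.352), ZNF233 (0.371) and CD163L1 (0.374). POU5F1 had 0.782 and 0.455 CPM in WT against 3.02 and 3.29 CPM in KO cells. The log2 fold changes of POU5F1 and ZNF233, 2.38 and 2.26, passed the test, that of ZNF233 not without KO replicate 1 (2.20), and that of CD163L1, 1.72, did not. POU5F1 has near-identical pseudogenes that could share its reads, so its counts are uncertain. These genes are near the detection limit in WT cells as LHX1 is. All were under 1 CPM in both WT libraries, so like LHX1 they passed the filter only through the KO libraries. They were picked for a pattern like that of LHX1 in the same libraries, so their fold changes and calls are not independent of it.

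Relatives of the 8 factors in the families of sine oculis homeobox, EYA, SALL, PAX, LHX and EGR genes were called about as often as all genes. Of 28 relatives 20 were tested, of which 1 was higher and 3 were lower in KO cells, a share of 20.0% beside 20.9% of all genes. Their median log2 fold change was -0.03, and 12 of the 20 did not overlap between the genotypes, against 60.4% of all genes. Of the 8 not tested, 5 were at or under 3 counts in every library, among them PAX4 and LHX5 with no count. The plot of fold changes with their intervals shows relatives under the 7 factors.

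**Figure D2:**
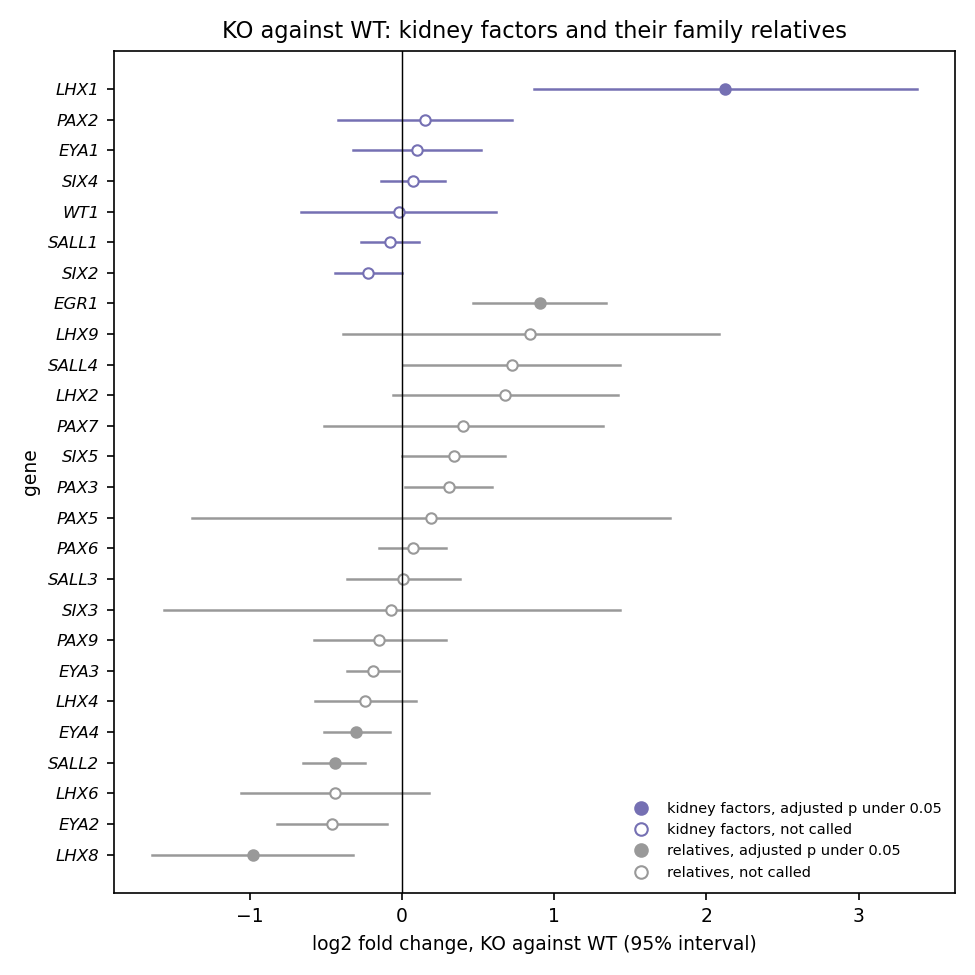
Log2 fold change, KO against WT, with its 95% interval for the 7 kidney factors tested (purple) and 19 of the 20 relatives (grey), filled where the adjusted p was under 0.05. LHX1 at 2.12 lies right of all others. Of the other 6 factors, the interval of SIX2 ends at 0.00 after rounding and the rest cross 0.

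The relative that rose was EGR1, an immediate early zinc finger factor whose DNA-binding domain resembles that of WT1. It was counted 78 and 80 times in WT and 183 and 175 times in KO libraries, a log2 fold change of 0.91 (Benjamini-Hochberg adjusted p = 0.00303, edgeR's quasi-likelihood test). SALL2, the zinc finger relative of SALL1, had 71.6 and 78.1 CPM in WT against 50.9 and 59.7 CPM in KO cells. It was lower by a log2 fold change of -0.44 (Benjamini-Hochberg adjusted p = 0.00212, edgeR's quasi-likelihood test), which did not pass without KO replicate 1 (-0.33). LHX8, a LIM homeobox factor of forebrain and oocytes, had 7.69 and 6.92 CPM in WT against 3.63 and 3.76 CPM in KO cells, a log2 fold change of -0.98 that did not pass when any 1 of the 4 libraries was left out (-1.06 to -0.90). EYA4, a relative of EYA1 known for its role in hearing, fell by 0.30 on the log2 scale, and this passed in 3 of the 7 alternative fits and, with 1 library left out, only without WT replicate 2 (range -0.46 to -0.14).

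The 16 other relatives tested were not called. Among PAX genes the log2 fold changes were 0.31 for PAX3 (0.39 when library size alone set the scale, which passed), 0.19 for PAX5, 0.07 for PAX6, 0.40 for PAX7 and -0.15 for PAX9. Among sine oculis homeobox and EYA genes they were -0.07 for SIX3, 0.34 for SIX5, -0.46 for EYA2 and -0.19 for EYA3. The value of EYA2 lay near the threshold: it passed without WT replicate 2 (-0.69), with the replicate block (-0.45) and with no filter beyond 1 count (-0.46), and was -0.22 without WT replicate 1. Among LHX genes they were 0.68 for LHX2, -0.24 for LHX4, -0.44 for LHX6 (-0.91 without WT replicate 2, which passed) and 0.84 for LHX9, and in the SALL family 0.01 for SALL3 and 0.72 for SALL4. PAX3 and PAX7 belong to neural crest and muscle, PAX6 to eye and brain, and SALL4 to pluripotent and germ cells.

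The make-up of the EYA, SALL, PAX and LHX families was described as shares of each family's summed CPM per kb of merged exon. SALL1 and SALL2 together formed most of the SALL family, SALL1 with 44.2% ± 3.9 in WT and 48.1% ± 3.26 in KO cells (mean ± SD of 2 libraries) and SALL2 with 45.9% ± 4.43 and 39.0% ± 4.01. The share of SALL2 did not overlap between the genotypes, and that of SALL1 did.

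The kidney factors were minor members of the EYA, PAX and LHX families. EYA1 made up 4.93% of the EYA family in WT and 6.27% in KO cells, where EYA3, a broadly expressed relative, held 55.2% and 57.5%. PAX2 took 10.8% and 10.7% of the PAX family and PAX8 0.377% and 0.303%, behind PAX3, PAX6 and PAX9 with 33.3%, 26.5% and 23.0% in WT cells. LHX1 went from 1.65% ± 0.242 of the LHX family in WT to 7.59% ± 1.55 in KO cells (mean ± SD of 2 libraries). LHX4, a pituitary factor, remained the most abundant LHX gene with 40.9% and 36.4%. The order of the PAX genes depends on the length used. Per kb of the Ensembl canonical transcript, PAX6 stood at 18.6 CPM in WT, above PAX3 at 7.28, PAX9 at 2.91 and PAX2 at 1.57. On that length EYA3 stayed above EYA4 with a smaller lead, at 16.2 against 12.1 CPM per kb in WT.

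**Figure D3:**
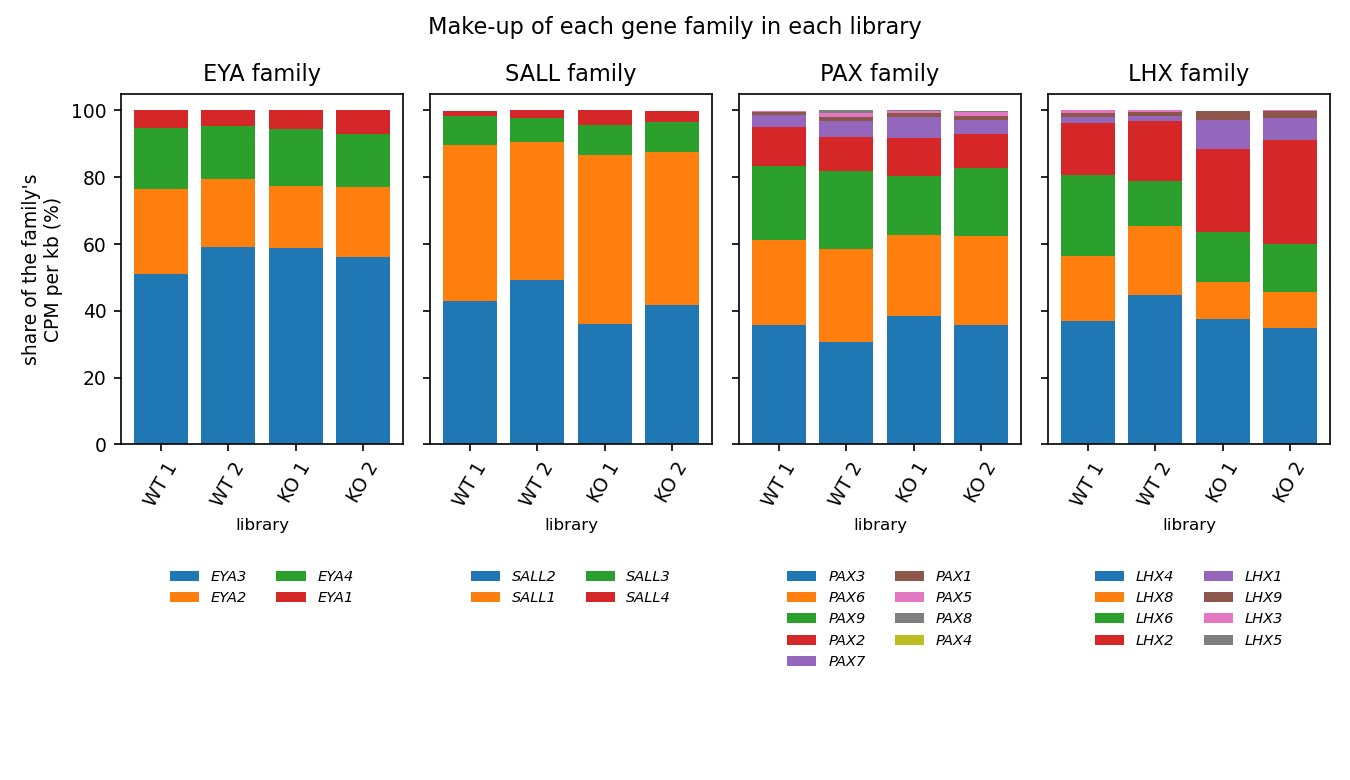
Shares of each gene in the summed CPM per kb of merged exon of its family, in percent, for the EYA, SALL, PAX and LHX families, with 1 stacked bar for each library. SALL1 forms on average 44.2% of its family in WT and 48.1% in KO libraries, and the share of LHX1 grows from 1.65% to 7.59%.

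A list of 66 other genes of kidney development placed the 8 factors in their pathway. Of these 48 were tested, with 2 higher and 7 lower in KO cells, a share of 18.8% beside 20.9% of all genes, and a median log2 fold change of -0.06. Leaving out chromosome 16, where SOX8 and IRX3 lie, 46 genes were tested and 2 were higher and 5 lower (15.2%). No share of all genes without chromosome 16 is given to set beside it. DESeq2 called 4 of the 9. Of the 18 not tested, 6 were at or under 3 counts in every library, 4 of them (IRX1, IRX2, FOXI1 and FGF20) with no count. By role, 14.3% of mesenchyme factors were called, 33.3% of bud and of segment factors, 11.1% of ligands, 18.2% of receptors and 0% of modulators. Each stands beside 20.9% of all genes and rests on at most 14 genes tested.

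Among 18 transcription factors of the mesenchyme and progenitors, 14 were tested, 1 was higher and 1 lower. MEIS2, a homeobox cofactor of HOX proteins, rose from 40.4 and 37.4 CPM in WT to 56.7 and 57.6 CPM in KO cells (log2 fold change 0.56). HOXC11, a HOX gene of the posterior body, fell from 7.69 and 8.83 CPM to 4.32 and 4.13 CPM (log2 fold change -0.97), and with 1 library left out this passed only without WT replicate 1 (range -1.06 to -0.86). HOXA11 and HOXD11, whose mouse counterparts are needed together for kidney formation, had log2 fold changes of -0.11 and 0.15 and were not called. CITED1, a progenitor marker, was not called either, at -0.18. FOXC1, a mesodermal forkhead factor, was the most abundant of this group by CPM, between 338 and 354 in all libraries.

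Of 9 factors of the ureteric bud 6 were tested and 2 were lower. SOX8, which acts with SOX9 in signalling of the RET receptor, fell from 8.22 and 4.55 CPM in WT to 1.81 and 1.78 CPM in KO cells (log2 fold change -1.80, and -1.33 without WT replicate 1, which did not pass). TFCP2L1, a collecting duct factor, had a log2 fold change of -0.63, and -0.38 without WT replicate 1 and -0.60 without KO replicate 1, neither of which passed. GATA3, a duct factor that PAX2 and PAX8 activate, stood between 27.5 and 28.3 CPM in all 4 libraries. EMX2, a homeobox factor of the bud, had a log2 fold change of 0.04 and was not called.

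Of 11 factors of nephron segments 6 were tested and 2 were lower. IRX3, of the middle segments, fell from 10.2 and 11.5 CPM to 5.27 and 4.79 CPM (log2 fold change -1.11). POU3F3, of the loop of Henle, had a log2 fold change of -0.85, which did not pass without WT replicate 2 (-0.82) or without KO replicate 1 (-0.56). LMX1B, of podocytes, was not called, at -0.07. HNF4A, of the proximal tubule, reached at most 7 counts.

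Of 15 ligands 9 were tested and 1 was lower. WNT11, made by bud tips, had 7.43 and 11.5 CPM in WT against 3.46 and 4.51 CPM in KO cells, a log2 fold change of -1.27 that did not pass without WT replicate 2 (-0.90). GDNF, the signal of the mesenchyme to the bud and a target of PAX2 in mice, reached at most 12 counts and was not tested. WNT4 and WNT9B, which drive nephron formation, were not tested either, with at most 11 and 6 counts. BMP7, which maintains progenitors, had a log2 fold change of -0.22 and was not called.

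All 11 receptors and adhesion proteins were tested, with 1 higher and 1 lower. ITGA8, the integrin of the mesenchyme that is needed for GDNF expression, fell from 12.3 and 11.2 CPM to 6.91 and 6.95 CPM (log2 fold change -0.75). This did not pass without WT replicate 1 (-0.69), KO replicate 1 (-0.75) or KO replicate 2 (-0.76). DCHS1, a large cadherin that binds FAT4, had a log2 fold change of 0.94, which did not pass without WT replicate 2 (0.47) or KO replicate 1 (0.84). RET, the GDNF receptor, was counted 19 and 22 times in WT and 8 and 18 times in KO libraries and was not called (log2 fold change -0.91). The modulators SPRY1 and LFNG were not called, at -0.28 and 0.07.

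Cofactors that bind the 8 factors or act with their binding partners were counted apart. All 19 were tested, with 0 higher and 6 lower in KO cells, a share of 31.6% lower beside 12.1% of all genes, and a median log2 fold change of -0.18. The list was chosen with earlier results known, and the shares were not matched for level or chromosome. CHD4, MTA2 and HDAC1, parts of the NuRD complex that SALL1 recruits, had log2 fold changes of -0.42, -0.24 and -0.22. These changes were called in 7, 5 and 6 of the 7 alternative fits. Those of MTA2 and HDAC1 did not pass when library size alone set the scale (-0.15 and -0.14), nor that of MTA2 without WT replicate 2 (-0.21) or KO replicate 1 (-0.20), nor that of HDAC1 without WT replicate 1 (-0.15) or KO replicate 2 (-0.20). The other 4 NuRD genes of the list were not called, at 0.07 for MTA1, 0.01 for RBBP4, -0.05 for HDAC2 and -0.09 for RBBP7. DACH1, a partner of EYA proteins, fell by 0.38 on the log2 scale. SSBP3, which stabilizes the complex of LIM homeobox factors with LDB1, had 175 and 189 CPM in WT against 120 and 118 CPM in KO cells (log2 fold change -0.62). PAGR1, a partner of the PAX-binding protein PAXIP1, lies on chromosome 16 and had 73.2 and 65.7 CPM in WT but 30.9 and 38.6 CPM in KO cells. LDB2, an adaptor of LIM factors, had 3 and 5 counts in WT and 16 counts in each KO library, and its log2 fold change of 1.72 did not pass (Benjamini-Hochberg adjusted p = 0.116, edgeR's quasi-likelihood test). At 0.391 and 0.455 CPM in WT, LDB2 passed the filter only through the KO libraries, so its direction was set by the filter. The plot by role shows most of the called genes below 0.

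**Figure D4:**
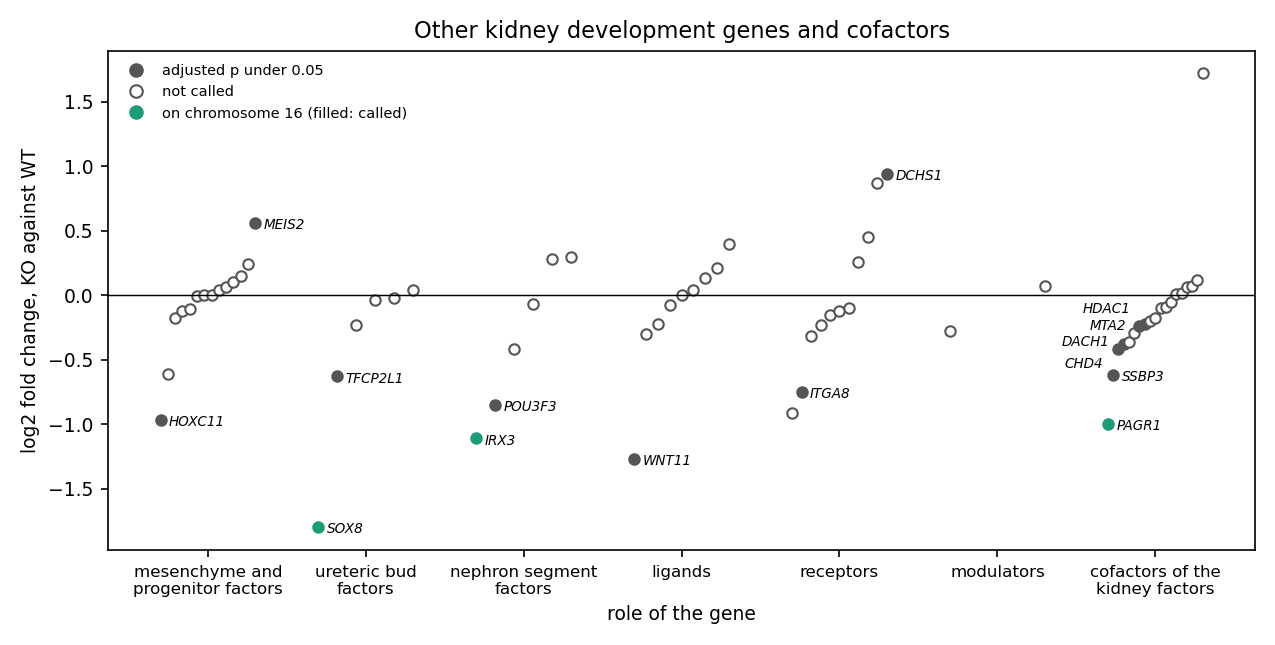
Log2 fold change, KO against WT, of 48 tested kidney development genes and 19 cofactors, grouped by role along the horizontal axis, filled where the adjusted p was under 0.05 and green on chromosome 16. Of the 15 filled points MEIS2 and DCHS1 lie above 0 and 13 lie below, beside 1154 higher and 1594 lower among all genes called.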

How the data were processed

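RNA from WT and THUMPD1 KO cells was measured in 4 libraries, grouped by the genotype in their labels. The authors deposited raw counts, whole numbers of reads per gene symbol and library, with no normalization. The methods of the study name STAR and RSEM on GRCh38 with limma-voom, the submitters' processing notes name hg19, and which of them made the counts is not given in the sources used here. The methods also state 3 samples per genotype, where the labels give 2. The authors also deposited their own comparison of the genotypes (mean counts, log2 fold changes with errors, p-values), which was not used.

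Counts of 13128 genes with 1 CPM or more in 2 or more libraries were fitted in R 4.3.3 with edgeR 4.0.16 (TMM, glmQLFit, glmQLFTest) and p-values were adjusted by Benjamini-Hochberg with a threshold of 0.05. Positions and exon lengths came from GENCODE 44 (GRCh38), matched by symbol. Totals ran from 7875722 to 11362363 counts. Exact intervals and floors of 3 counts cover counting error only, and reads carry no molecular identifiers. The intervals of log2 fold changes came from the edgeR fit and also include the spread between these libraries. Alternatives were DESeq2 1.42.0, limma 3.58.1 (voom, quantile), other scalings, filters, threshold and lengths, the replicate number as a block, and leaving out each library. Tables were made with pandas 2.3.3 and SciPy 1.17.1 in Python 3.11.15, and figures with matplotlib 3.10.9.

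The 8 factors and the lists were chosen with earlier results of these data known. Named genes are the 8 factors, every relative tested, the 12 largest changes among called development genes and cofactors without overlap, nearest neighbours, and the 3 genes most like SALL1 and LHX1 in log2(CPM + 0.5). Other genes of the lists were named after their values were seen, as was the length of the Ensembl canonical transcript as an alternative. Some genes of the lists are counted but not reported here by name.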

Additional observations from a re-analysis of the deposited data

How the results depend on the processing

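Under the alternatives the number of genes called was 1764 with DESeq2, 1594 at a threshold of 0.01, and 1620 to 2591 with 1 library left out. Of the 8 kidney factors 0 were called with at least 10 counts in every library, where LHX1 could not be tested, 0 at an adjusted p of 0.01, and 0 to 1 with 1 library left out. The kidney development list had 4 genes called with DESeq2 and 4 at 0.01, and the relatives 2 and 2, and 1 to 5 with 1 library left out. With the replicate block, 3222 genes, 1 kidney factor, 11 development genes and 5 relatives were called. The numbers do not pair the samples, since deviations of same-numbered libraries correlated at 0.0257. A sign turned for genes that were not called: with library size alone for WT1 (0.07), SALL1 (0.01) and SIX3 (0.01), with the upper quartile for WT1 (0.01) and with limma-voom for PAX5 (-0.09). With 1 library left out, EYA1 ranged from -0.08 to 0.26, WT1 from -0.09 to 0.05, SALL1 from -0.20 to 0.05, PAX5 from -0.31 to 1.25, PAX6 from -0.05 to 0.23, SIX3 from -0.84 to 1.09, LHX6 from -0.91 to 0.14 and SALL3 from -0.17 to 0.18 on the log2 scale. The lone library then left of a genotype is assumed to vary like the other. The causes were not tested. With 2 libraries per genotype and few counts, small changes of PAX2, WT1 and EYA1 could not be detected at this depth, as their intervals show.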
